A study of Mus musculus with 7 samples.

Results

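Dbh, Th, Ddc, Maoa and Maob encode the enzymes that make and oxidise catecholamines, and their mRNA was read in hearts lacking AKT1 and AKT2 in cardiomyocytes. These 5 genes were chosen for their measured levels in the same samples described here, so the difference between the genotypes is given for each of them as a description with no test. Matching of probe accessions to the RefSeq gene table gave 9 probes for the 5 genes, out of 56605 non-control probes on the array. Dbh, Th, Ddc and Maob have 2 probes each, and Maoa has 1.

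RNA came from the heart apex of male C57Bl/6 mice aged 3 months. The 3 AKT1+AKT2 double knockout (DKO) mice were homozygous for floxed Akt1 (exons 6 and 7) and floxed Akt2 (exons 5 and 6) and carried 1 copy of the MHC-mercremer transgene. That transgene is a tamoxifen-inducible Cre driven by the cardiac alpha myosin heavy chain promoter, so the deletion is directed to cardiomyocytes and the other cells of the heart keep both genes. The 4 control mice carried 1 copy of the same transgene without floxed alleles. Both groups received 500 µg hydroxytamoxifen per day for 5 days and no other treatment, and hearts were taken on day 10 after induction. Every mouse was therefore exposed to Cre and tamoxifen, and mice with floxed alleles but no Cre were not analysed here. Each heart gave 1 Cy3-labelled Agilent 1-colour array.

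Tyrosine hydroxylase, from Th, makes L-DOPA from tyrosine and is the rate-limiting step of catecholamine synthesis. Aromatic L-amino acid decarboxylase, from Ddc, turns L-DOPA into dopamine, and dopamine beta-hydroxylase, from Dbh, turns dopamine into noradrenaline inside the vesicles of sympathetic nerve endings. Monoamine oxidases A and B, from Maoa and Maob, sit on the outer mitochondrial membrane and oxidise the amines after uptake into cells. In the heart most noradrenaline is made in sympathetic nerve fibres whose cell bodies lie in ganglia outside the organ, while the monoamine oxidases are also present in cardiomyocytes.

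Promoter windows of Dbh and Th are shown because these steps of 1 pathway had the most and the least different levels between the genotypes among the 5 genes. Both windows run from 250 bases before to 50 bases after the annotated gene start in RefSeq on GRCm38.p6, 5′ to 3′ on the strand of the gene. The Dbh window is chr2:27165257-27165556 on the plus strand and the Th window is chr7:142899946-142900245 on the minus strand. Capitals mark matches to the motifs searched, given after the sequences.
Dbh: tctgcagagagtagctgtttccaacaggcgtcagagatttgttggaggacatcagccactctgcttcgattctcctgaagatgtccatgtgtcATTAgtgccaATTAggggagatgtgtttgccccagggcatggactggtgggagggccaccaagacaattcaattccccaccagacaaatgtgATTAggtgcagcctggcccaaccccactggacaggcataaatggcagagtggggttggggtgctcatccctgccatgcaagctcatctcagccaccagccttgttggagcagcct
Th: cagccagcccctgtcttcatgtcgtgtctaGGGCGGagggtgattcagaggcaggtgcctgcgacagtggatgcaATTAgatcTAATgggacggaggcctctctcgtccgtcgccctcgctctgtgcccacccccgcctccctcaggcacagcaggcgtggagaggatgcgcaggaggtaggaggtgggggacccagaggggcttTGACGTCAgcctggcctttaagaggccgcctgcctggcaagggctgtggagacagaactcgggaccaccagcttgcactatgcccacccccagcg
On both strands the search covered TGTTTAC (a FoxO site), TGACGTCA (the cAMP response element), GGGCGG (a GC box), AGATAA (bound by GATA factors) and ATTA (the homeodomain core), none of which contains another. With the gene start counted as 0, the Dbh window held ATTA at -157, -147 and -65 and no match to the other 4 motifs. The Th window held TGACGTCA at -45, GGGCGG at -220, and ATTA at -175 and, on the opposite strand, at -167. Of the 32851 RefSeq windows of the same length, 3.65% held TGTTTAC, 1.79% TGACGTCA, 35.7% GGGCGG, 11.2% AGATAA and 58% ATTA. GC content was 54% in the Dbh window and 64.3% in the Th window. The Maoa window held GGGCGG on the opposite strand at -46 and 44 and none of the other motifs, and both Ddc windows held ATTA alone. No window of this length was available for Maob, so it was not searched.

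Between 50.9% and 55.7% of non-control probes per array were well above background by the scanner software's flag, and no spot was saturated. All 7 arrays came from 1 slide and 1 scan. The Akt2 probes were 4.87-, 4.13- and 1.60-fold lower in DKO hearts, whereas Akt1 gave 14.65 ± 0.04 in DKO and 14.48 ± 0.06 in control hearts by its brighter probe (log2, SD, n = 3 and 4). Where that probe lies relative to the floxed exons was not known here. All 12 cardiomyocyte markers examined were above background, and log2 of their summed signals was 21.14 to 21.28 in DKO and 21.14 to 21.23 in control hearts. Values below are normalized log2 signals, in which a difference of 1 is a 2-fold difference. Signals of different probes are not on a common scale, so genes are not ranked by level, and a sum over markers, compared only across hearts, is weighted toward its brightest probes.

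Dbh mRNA was lower in the DKO hearts, and of the 5 genes it had the only levels that did not overlap between the genotypes. Groups did not overlap for 25.7% of all genes in the comparison, so a gap in 1 of 5 does not set these genes apart. Its informative probe (A_55_P1974243) read 9.22, 8.86 and 9.34 in the 3 DKO hearts, against 10.92, 10.79, 10.95 and 11.07 in the 4 control hearts. The highest DKO heart lay 1.45 below the lowest control heart. The means were 9.14 ± 0.25 in DKO hearts (SD, n = 3) and 10.93 ± 0.11 in control hearts (SD, n = 4), a difference of -1.79, so the DKO signal was 3.46-fold lower and stood at 28.9% of the control signal. Before normalization the processed signals of this probe were 542, 439 and 710 in DKO hearts, against 1824, 1763, 1926 and 2495 in control hearts. In bulk tissue, fewer cells or fibres carrying a transcript and less transcript in each of them cannot be told apart.

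Among all 23678 genes in the comparison, the Dbh difference ranked 39 from the lowest, and 0.266% of genes had a difference at least as large in either direction. Non-overlapping groups were found for 25.7% of those genes. Since the values of this contrast chose the gene, its rank describes where it lies and supports nothing further. By slide row, the DKO heart of row 1 read 9.34 against a mean of 10.98 in 3 control hearts, a difference of -1.64. In row 2 a pair of DKO hearts averaged 9.04 against 10.79 in 1 control heart, a difference of -1.75. Because the groups do not overlap, Dbh is lower in any split of the arrays, so the rows do not test slide position. The second Dbh probe (A_51_P444543) was not well above background on any of the 7 arrays (3.20 ± 0.56 in DKO and 2.98 ± 0.33 in control hearts), so it gives no fold, and the Dbh level rests on 1 probe.

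The earlier steps of the pathway showed no such gap. Th read 9.16, 9.06 and 8.97 in DKO hearts, against 8.89, 9.22, 8.94 and 9.12 in control hearts (A_55_P2275249). The DKO hearts lay inside the range of the controls, with means of 9.06 ± 0.10 and 9.04 ± 0.15 and a difference of 0.02. The other Th probe (A_66_P102005) was not well above background on any array.

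Ddc read 8.91, 8.89 and 8.80 in DKO hearts, against 9.09, 8.97, 8.86 and 8.94 in control hearts by its brighter probe (A_55_P2500104). Means were 8.87 ± 0.06 in DKO and 8.97 ± 0.10 in control hearts, and the groups overlapped. Its dimmer probe (A_52_P63905) read 6.28, 6.18 and 5.67 in DKO hearts, against 6.50, 6.51, 6.18 and 6.35 in control hearts. The difference was -0.10 by the first probe and -0.34 by the second, and the groups also overlapped on the second, where DKO replicate 3 was the lowest heart.

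Maoa, whose enzyme prefers noradrenaline and serotonin, read 6.44, 5.56 and 5.77 in DKO hearts, against 5.80, 5.42, 6.32 and 5.56 in control hearts (A_66_P119238). The groups overlapped and each spread widely, with means of 5.92 ± 0.46 and 5.77 ± 0.40. The difference of 0.15 was smaller than either SD, and its sign differed between slide rows, at -0.12 in row 1 and 0.58 in row 2.

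Maob, whose enzyme oxidises dopamine and phenylethylamine, read 11.18, 11.11 and 11.19 in DKO hearts, against 11.22, 11.22, 10.84 and 11.18 in control hearts (A_51_P302566). Its means of 11.16 ± 0.04 in DKO and 11.12 ± 0.18 in control hearts differed by 0.04. Control replicate 3 lay below every other heart on this probe. The second Maob probe (A_66_P124140) read 7.57, 7.49 and 7.47 in DKO hearts, against 7.59, 7.29, 7.20 and 7.52 in control hearts, again with overlap and a difference of 0.11. Signals of 7 of the 9 probes were well above background in every heart and those of the other 2 in no heart.

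**Figure D1:**
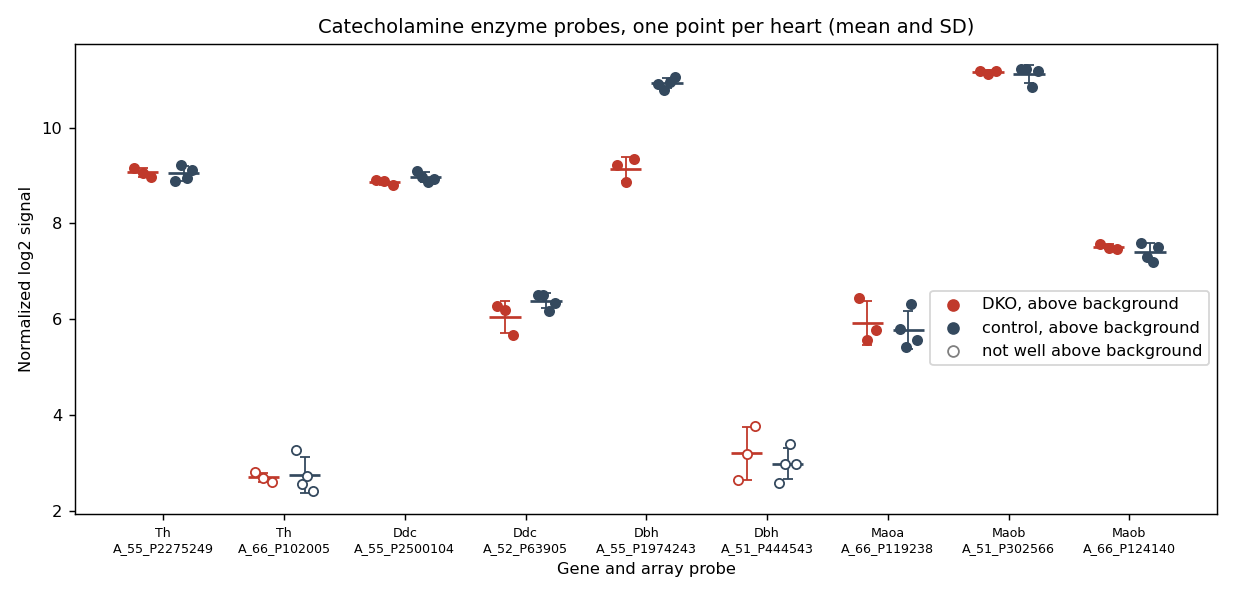
Normalized log2 signal (vertical axis) of the 9 probes of Th, Ddc, Dbh, Maoa and Maob, one point per heart, DKO in red left of control in dark blue, with bars for the mean and SD and open circles for spots not well above background. Dbh probe A_55_P1974243 has a gap of 1.45 between its DKO and control hearts, while the groups overlap on the other 6 probes above background.

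By root mean square distance between log2 values centred on each gene's mean over the 7 arrays, the profile nearest to Dbh among 13711 named genes considered, all above background on all arrays, was that of Igsf1, at 0.218. Fam78a followed at 0.219, the deleted gene Akt2 at 0.222, Plekhh1 at 0.232 and Cryba4, which encodes a crystallin, at 0.254, against a median distance of 0.923 over all candidates. All 5 differed downward between DKO and control hearts, by -1.99, -1.52, -2.05, -1.97 and -1.52, so these distances reflect the genotype difference and 7 arrays only. For Maoa the nearest profiles were Elmo2 at 0.105, Smpd3 at 0.131 and Slitrk4 at 0.174 (median 0.400), and for Maob they were Mat2a at 0.0331, Snrpd3 at 0.0433 and Fem1al at 0.0496 (median 0.194). The groups overlap for both oxidases, so these matches describe variation among 7 arrays only.

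**Figure D2:**
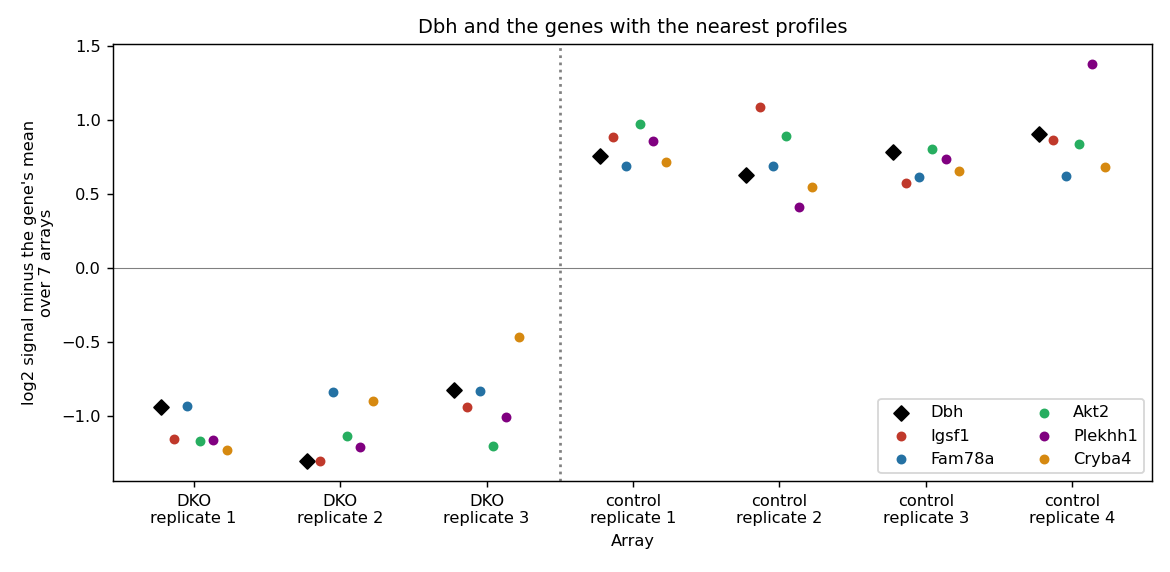
Log2 signal minus the gene's mean over the 7 arrays (vertical axis) for Dbh, as black diamonds, and the 5 genes with the nearest profiles, as coloured circles, by array with the 3 DKO arrays left of the 4 control arrays. Every point of the 6 genes is below 0 on the DKO arrays and above 0 on the control arrays.

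Around these enzymes, 6 lists of pathway genes chosen by role held 54 genes, of which 53 were on the array by name and 41 were measured well enough to be tested. Of these 41, 2 were lower in DKO hearts and 0 were higher by limma at an adjusted p under 0.05. These 2 calls are 4.88% of the 41, close to the 4.70% of all 23678 genes that were called (2.29% lower and 2.41% higher). An unadjusted p under 0.05 was found for 14 of the 41 and for 25.5% of all genes, the share to set beside each count at an unadjusted p given below. The median difference was 0.06 over the 41 genes and -0.02 over all genes. The called genes were Slc22a3 and Slc31a1, which carry amines and copper across the cell membrane.

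Amine uptake transporters had 1 call among 2 tested of 6. Slc22a3, the extraneuronal monoamine transporter that takes up noradrenaline in non-neuronal cells, read 7.23, 6.82 and 7.36 in DKO hearts, against 8.00, 8.26, 8.17 and 7.70 in control hearts. It was 1.86-fold lower (difference -0.89 ± 0.18 SE; limma adjusted p = 0.0410), but it did not pass whichever of the 7 arrays was left out, with limma adjusted p between 0.0600 and 0.107.

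Slc29a4, the plasma membrane monoamine transporter, differed by 0.35 ± 0.13 SE and did not pass (limma adjusted p = 0.165). The noradrenaline, dopamine and serotonin transporters Slc6a2, Slc6a3 and Slc6a4, which act in the plasma membrane of neurons, and Slc22a2 were not well above background on any array. Their mRNA could therefore not be compared between the genotypes.

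Monooxygenase partners, which are relatives of dopamine beta-hydroxylase, the enzyme after it and the suppliers of its copper and ascorbate, had 1 call among 8 tested. Slc31a1, the copper uptake transporter, read 9.83, 9.77 and 9.76 in DKO hearts, against 10.41, 10.52, 10.08 and 10.33 in control hearts. It was 1.46-fold lower, without overlap (difference -0.55 ± 0.11 SE; limma adjusted p = 0.0436). This call was lost when any 1 array other than control replicate 3 was left out, at limma adjusted p up to 0.125.

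Pam and Moxd1, copper monooxygenases related to dopamine beta-hydroxylase, lay on the other side. Pam differed by 0.47 ± 0.11 SE (limma adjusted p = 0.0572) and Moxd1 by 0.61 ± 0.14 SE (limma adjusted p = 0.0585), so neither passed. Pnmt, which makes adrenaline from noradrenaline, was dim and differed by -0.38 ± 0.26 SE (limma adjusted p = 0.397). The copper carriers Atp7a and Atox1 differed by -0.06 and 0.03, the ascorbate transporter Slc23a2 by 0.06 and the ascorbate-regenerating cytochrome Cyb561 by 0.17.

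Genes that supply tetrahydrobiopterin, the cofactor of tyrosine hydroxylase, gave 0 calls by limma among 7 tested, with 2 at an unadjusted p under 0.05 and a median difference of 0.08. Gch1, the first enzyme of that route, differed by 0.06. The smallest p-values belonged to Pcbd1 at -0.36 ± 0.10 SE (limma adjusted p = 0.0954), Spr at 0.25 ± 0.08 SE (0.109) and Pcbd2 at 0.14 ± 0.09 SE (0.369).

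Of the vesicle storage genes, Slc18a1, Chga, Chgb and Scg2 were not well above background on any array, and limma called 0 of the 3 tested, with 1 at an unadjusted p under 0.05. Slc18a2, the vesicular monoamine transporter of sympathetic nerve endings, averaged 5.99 ± 0.14 in DKO and 6.42 ± 0.29 in control hearts (difference -0.43 ± 0.16 SE; limma adjusted p = 0.160), a difference that shrank to -0.12 and -0.07 with normexp background correction. Scg5 differed by 0.14 (0.762) and Pcsk1n by -0.05 (0.773). The list's median difference was -0.05.

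Partners of monoamine oxidase in amine breakdown gave 0 calls by limma among 11 tested, with 3 at an unadjusted p under 0.05, 5 differences above 0, 6 below and a median of -0.09. Aldh2, the mitochondrial aldehyde dehydrogenase that takes the aldehydes left by monoamine oxidase, differed by 0.29 ± 0.07 SE (limma adjusted p = 0.0732). Akr1b3, an aldose reductase, differed by -0.20 ± 0.08 SE (0.162), and Aox1, an aldehyde oxidase, by 0.22 ± 0.08 SE (0.169). Rnls was not on the array by name.

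Other amine enzymes likewise gave 0 calls by limma among 10 tested, with 3 at an unadjusted p under 0.05 and a median difference of 0.15. Aoc3, a vascular amine oxidase, differed by 0.38 ± 0.09 SE (limma adjusted p = 0.0566), Inmt, which methylates indole amines, by 0.88 ± 0.30 SE (0.133) and Hdc, which makes histamine, by 0.34 ± 0.14 SE (0.187). Aoc1 and the serotonin-synthesis genes Tph1 and Tph2 were not well above background on any array.

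**Figure D3:**
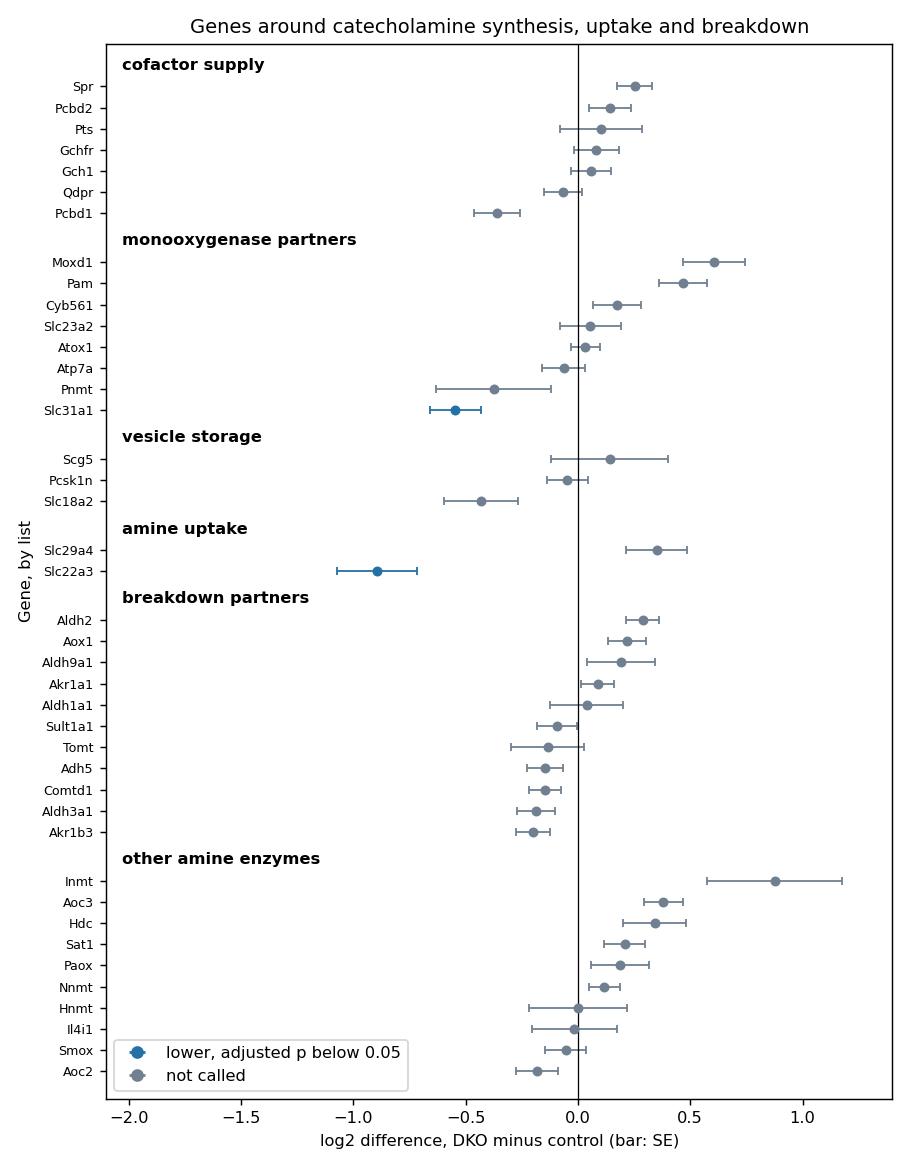
Log2 difference between DKO and control hearts (horizontal axis, with the SE as a bar) for the 41 tested pathway genes grouped by role, with called genes in blue. Slc22a3 and Slc31a1 are the called genes, both left of 0.

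Markers of the cells that could carry Dbh were read beside it. Of 16 sympathetic neuron markers, Isl1, Chrna3, Npy, Prph and Syt1 were not well above background on any array, and 10 were tested. None of the 10 was called by limma, 4 had an unadjusted p under 0.05 (25.5% of all genes did), and 5 differences lay above 0 and 5 below. The median of the markers relative to the control mean was -0.07 to 0.06 in DKO hearts and -0.04 to 0.04 in control hearts, whereas log2 of their summed signal was 13.73 to 14.05 in DKO and 14.23 to 14.42 in control hearts. That sum is carried mainly by its brightest probe, Snap25, at 13.31 in DKO and 13.82 in control hearts. Snap25, a synaptic membrane protein, differed by -0.51 (limma adjusted p = 0.0720) and Uchl1 by -0.35 (0.0759), while Stmn2 differed by 0.40 (0.0720) and Elavl4 by 0.45 (0.0503). Among the regulators of the noradrenergic fate, Phox2a differed by 0.15, Hand2 by -0.11 and Gata3 by 0.43, and none passed. The part of nerve content in the Dbh difference was not tested.

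Of 5 cholinergic neuron markers only Chat was tested, at a difference of 0.27, and it was not called. The share to set beside each count of called markers here and below is the 4.70% of all tested genes that were called. Schwann cell markers, from the glia that ensheath the nerve fibres, had 1 call among 9 tested, Ngfr at 0.41 ± 0.08 SE (limma adjusted p = 0.0368), a call lost whichever array was left out, at up to 0.119. Mural markers had 1 call among 10, Myh11 at 0.63 ± 0.14 SE (limma adjusted p = 0.0487), also lost whichever array was left out, while Acta2 of the same list differed by -0.41 (0.128), with 7 differences above 0 and 3 below. Relative to the control mean, the Schwann cell median was 0.17 to 0.31 in DKO hearts and -0.09 to 0.06 in control hearts. The mural median was 0.21 to 0.26 in DKO and -0.05 to 0.07 in control hearts, and the endothelial median was 0.17 to 0.20 in DKO and -0.11 to 0.11 in control hearts, with 10 of 10 endothelial differences above 0. The Schwann cell list was therefore not alone in lying above its control range.

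Atrial and conduction markers had 2 calls among 10, both lower: the pacemaker channel genes Cacna1g at -0.76 ± 0.10 SE (limma adjusted p = 0.0130) and Hcn4 at -0.54 ± 0.09 SE (0.0294). The Cacna1g call was lost without DKO replicate 1 (0.0618) or control replicate 4 (0.0502), and the Hcn4 call in 5 of the 7 omissions, at up to 0.101. The list did not move one way, with 4 differences above 0 and 6 below: Nppa, the atrial natriuretic peptide gene, differed by 0.82 ± 0.21 SE without overlap (limma adjusted p = 0.0788). With that bright probe in it, log2 of the list's summed signal was 17.15 to 17.66 in DKO and 16.34 to 16.97 in control hearts. Cardiomyocyte, fibroblast, endothelial, macrophage, mast cell and platelet, red cell and adipocyte markers gave 0 calls by limma. Of their tested members 4 of 12, 3 of 10, 2 of 10, 1 of 10, 1 of 9, 0 of 4 and 1 of 2 had an unadjusted p under 0.05, as did 4 of 9 Schwann cell, 5 of 10 atrial and conduction and 6 of 10 mural markers. The part of these cell types in the Dbh difference was not tested.

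Genes beside Dbh on its chromosome were set against it, taking the 3 nearest tested genes on each side in the RefSeq order of GRCm38.p6, a rule chosen after the arrays had been read. Fam163b, next to Dbh, was lower too, at 5.36, 5.47 and 5.59 in DKO hearts, against 7.06, 6.46, 6.72 and 7.20 in control hearts. Its groups did not overlap (difference -1.39 ± 0.18 SE, 2.61-fold lower; limma adjusted p = 0.0143), and the call was lost without DKO replicate 1 (0.0633) or DKO replicate 2 (0.0552). With normexp background correction its difference was smaller, at -0.77 and -0.73. On the other side of Dbh, Sardh differed by -0.47 ± 0.12 SE (limma adjusted p = 0.0680) and Vav2 by -0.51 ± 0.12 SE (0.0646). Vav2 was dim, at a mean of 4.88 in DKO hearts, where 2 of 3 arrays were well above background. Mymk, Adamtsl2 and Brd3 differed by -0.12, 0.01 and -0.02. Thus 1 of 6 neighbours was called, as was 1 of 6 beside Slc31a1, and none of the 6 was called beside Th or Ddc. Of all tested genes 4.70% were called, and sets of 6 are too small to compare with that share. The sets beside Maoa and Maob are not separate, since they share 4 genes and each holds the other oxidase. That oxidase is described without a test, and with it left out neither set held a called gene.

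Beside Slc31a1, Hdhd3 was lower at -0.93 ± 0.15 SE (limma adjusted p = 0.0263), with its call lost in 5 of 7 omissions of 1 array, at up to 0.0829.

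**Figure D4:**
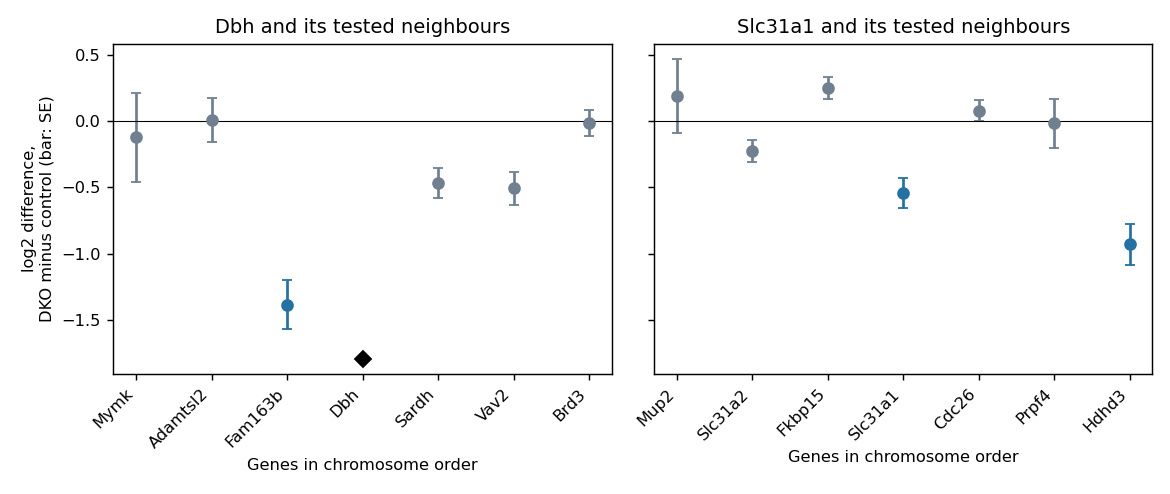
Log2 difference between DKO and control hearts (vertical axis, with the SE as a bar) for Dbh, as a black diamond without an error bar, and its 6 nearest tested neighbours, and for Slc31a1 and its 6 nearest tested neighbours, in chromosome order at equal spacing, with called genes in blue. Fam163b at -1.39 lies nearest to Dbh at -1.79, and Hdhd3 at -0.93 is the called neighbour of Slc31a1.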

How the data were processed

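Total RNA of 7 heart apices, each from a separate mouse per the labels, was measured on Agilent arrays of design 074809. The deposited scanner files hold spot intensities from Feature Extraction 12.0.3.1, per the file headers. A deposited table by the authors gives log2 values for 56745 probes, which matched quantile-normalized values centred on each probe's median (r from 0.9997 to 0.9999).

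Control spots and outlier flags were left out, each array's 75th percentile of log2 processed signal was subtracted, and 9.14 was added back to all values. Probes were named by accession through RefSeq (GRCm38.p6), which gave a symbol to 32994 probes and left 23611 with the file's name. The 30538 probes well above background on at least 3 of 7 arrays were kept, with the brightest per gene, which left 23678 genes. The 2 genotypes were fitted with limma 3.58.1 (R 4.3.3), two-sided, with a Benjamini-Hochberg threshold of 0.05. On simulated data of this comparison with 200 genes changed, the fit recovered 22.4%, 65.7% and 86.4% of genes changed by log2 0.5, 1 and 2, with 10 false calls. Recovery depends on how many genes change, which is not known for the hearts, so these shares may not hold for them. Precision is limited by having 7 arrays.

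Some genes of the lists are not reported here and stand in no list count. Members and lists were chosen with earlier results of these data known. Genes named were the 5 enzymes, Akt1 and Akt2, called members of each list, the 3 pathway members with the smallest p, the nearest profiles and neighbours. Other list members named beside them were chosen after their values were seen. Normexp alternatives used median spot signals, since the files carry no mean signal. Replicate numbers were not taken as pairs, since no label ties them. Signals of same-numbered control and DKO arrays correlated at 0.980, 0.990 and 0.987, and those of differently numbered ones at 0.978 to 0.989.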

Additional observations from a re-analysis of the deposited data

Results flagged for a closer look

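Maob (A_51_P302566) had 1 control heart apart from the rest: control replicate 3 read 10.84 where the other controls read 11.18 to 11.22. Its gap to the nearest control was 0.881 of the range of the 4 controls, above the critical value of Dixon's test. This was 1 flag among 26 groups of 4 control values examined, and chance flags about 1 in 20.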

How the results depend on the processing

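The Dbh difference lay between -1.89 and -1.65 over its 16 alternatives, and Th between -0.06 and 0.08, Maoa between -0.10 and 0.33 and Maob between -0.05 and 0.08. Ddc lay between -0.22 and -0.06, where -0.22 came from averaging its probes. The 1114 genes called became 549 with normexp, 714 with normexp and quantile normalization, 121 with no filter, 2028 with trended and robust variances, 1680 with array weights, 288 with slide row as a block and 1 with the replicate number as a block, and 160 to 1127 when 1 array was left out. By array left out, the count was 160, 276 and 352 without DKO replicates 1, 2 and 3, and 191 and 417 without control replicates 4 and 3, and 712 without control replicate 1. The 2 pathway genes called became 1 with quantile normalization, 1 with each normexp setting, 1 with the authors' values, 0 with no filter, 5 with a filter on all 7 arrays, 6 with trended and robust variances, 5 with array weights, 0 with slide row, 0 with the replicate block, and 0 to 1 when 1 array was left out. Over alternatives, Slc22a3 and Slc31a1 were lost with the replicate block (limma adjusted p = 0.145 and 0.167), no filter (0.135 and 0.160) and slide row (0.103 and 0.0731). Slc22a3 was also lost with quantile normalization (0.0513) and the authors' values (0.0511), and Slc31a1 with both normexp settings (0.0740 and 0.0535). With the normexp settings the Moxd1 difference was 0.32 and 0.38 and that of Slc29a4 0.17 and 0.21. Fam163b was lost with no filter (0.0583) and the replicate block (0.134). Scg5 ranged from -0.037 to 0.47 when 1 array was left out, at -0.01 without DKO replicate 2 and -0.037 without DKO replicate 3. Among the named genes, 345 values kept direction and side of the threshold, 77 of 8 genes lost the threshold and 12 of 5 genes passed it. The cause was not tested. Dim probes such as Maoa and Slc18a2, the second probe of Dbh, and neuronal genes not above background limit what can be compared.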
